A study of Mus musculus with 6 samples.

Results

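The expression of 10 immediate-early genes was followed in nanoparticle-positive and nanoparticle-negative endothelial cells of mouse mammary tumours. The genes encode AP-1 subunits of the Fos family (Fos, Fosb, Fosl2) and the Jun family (Jun, Junb, Jund), the zinc-finger factors Egr1 and Egr2, the ATF/CREB family factor Atf3, and Ier2, a small nuclear protein. They were chosen by name, by no threshold on their values, although earlier results of these data were known. The 10 genes are among 49315 gene IDs in the deposited counts, all 10 are in the authors' deposited table of 26071 genes, and all 10 passed the filter on low counts.

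Immediate-early genes are switched on by signals such as growth factors, shear, stress or injury without new protein synthesis, through kinases that activate factors already bound at their promoters. Fos proteins dimerise with Jun proteins to form AP-1, which binds TGACTCA-like sites, while Egr proteins bind GC-rich sites. In endothelium they are known as part of the response to flow, wounding and growth factors, and the same genes are also known to be induced when tissue is taken apart for cell sorting.

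The cells came from tumours of 4T1, a transplantable mouse mammary carcinoma line, grown for 2 weeks from cells placed in the inguinal mammary fat pad of 8-week-old female Balb/c mice, which were 10 weeks old at harvest. Every mouse received 1E12 gold particles of 50 nm, coated with 5K mPEG and carrying Cy5, by tail vein 1 hour before the tumour was taken. Tumours were digested mechanically and with enzymes, cells were depleted of CD45+ leukocytes and selected for CD31+ endothelium, and flow sorting divided each tumour's cells into a nanoparticle-positive (NP+) and a nanoparticle-negative (NP-) fraction. Each of the 3 tumours (MET-106 to MET-108) gave 1 library of each fraction. Both fractions were exposed to particles in the animal and to digestion and sorting, so no library shows the genes' levels without either.

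The libraries held 20856410 to 58089600 gene counts. Levels below are CPM, counts scaled to library size, with TMM factors that correct for differences in library composition, and a mean ± SD is over the 3 libraries of a fraction. The endothelial identity in the labels was checked with 12 pan-endothelial markers, and all 12 had counts in every library, with summed levels of 11826 to 14192 CPM in NP+ against 7809 to 11164 CPM in NP-. Of the libraries, NP- of MET-106 stood apart: its 9 fibroblast markers summed to 3820 CPM, against 168 and 66.9 CPM in the other NP- libraries and 16.9 to 60.3 CPM in NP+. Its 9 epithelial markers, which 4T1 cells can express, summed to 576 CPM. The other NP- libraries held 38.2 and 20.9 CPM of them, and the NP+ libraries 9.36 to 13.7 CPM. Results that rest on this library are given with and without it.

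Promoter sequence is shown for 3 genes that followed 3 different patterns in the data: Fos, which was near equal in both fractions, Jun, which differed most between NP- libraries, and Egr2, which was lower in NP+ in every tumour. Each sequence is the 250 bases before a RefSeq transcription start on build GRCm38.p6, written 5′ to 3′ along the gene. Fos lies at chr12:85473890-85477273 on the + strand, and the window is chr12:85473640-85473889. Jun, a gene of 1 exon, lies at chr4:95049034-95052222 on the - strand, and the window is chr4:95052223-95052472. Egr2 lies at chr10:67535475-67542188 on the + strand, and the window is chr10:67537619-67537868, before 1 of its 5 RefSeq starts. Capitals mark matches to the motifs searched.
Fos: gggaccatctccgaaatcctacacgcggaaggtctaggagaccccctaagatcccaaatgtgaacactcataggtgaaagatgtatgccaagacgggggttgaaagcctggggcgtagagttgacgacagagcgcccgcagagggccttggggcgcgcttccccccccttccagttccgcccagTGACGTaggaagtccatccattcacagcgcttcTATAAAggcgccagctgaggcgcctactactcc
Jun: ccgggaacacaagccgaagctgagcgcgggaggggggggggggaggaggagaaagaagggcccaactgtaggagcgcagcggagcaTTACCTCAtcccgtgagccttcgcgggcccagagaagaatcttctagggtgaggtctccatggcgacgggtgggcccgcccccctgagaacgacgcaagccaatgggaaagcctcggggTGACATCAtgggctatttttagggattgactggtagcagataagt
Egr2: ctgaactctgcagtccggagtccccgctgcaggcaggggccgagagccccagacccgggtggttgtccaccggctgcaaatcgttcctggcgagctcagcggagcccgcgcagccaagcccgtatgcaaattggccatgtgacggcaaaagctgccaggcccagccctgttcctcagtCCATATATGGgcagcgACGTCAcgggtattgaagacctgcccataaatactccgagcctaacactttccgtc

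The Fos window holds TATAAA at -33 and the CRE core TGACGT at -66, counted from the start. The Jun window holds TGACATCA at -45 and TTACCTCA at -164, which are AP-1-like motifs. The Egr2 window holds a CArG box, the motif of serum response factor, at -72, and TGACGT on the other strand at -56. Each motif was searched on both strands in 32851 windows of the same length over the genome, of which TATAAA was in 12.4%, TGACGT in 6.47%, TGACATCA in 2.93%, TTACCTCA in 0.728% and the CArG box in 1.47%. The AP-1 site TGACTCA, present in 4.46% of windows, was in none of these 3 windows. These matches describe letters in the windows only.

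Among the Fos family, Fos itself was abundant in both fractions, with the same tumour lowest in each. Fos encodes the founding AP-1 subunit and stood at 1281 CPM in the NP+ library of MET-106, 744 CPM in that of MET-107 and 1252 CPM in that of MET-108. The NP- libraries, in the same order, held 1562, 745 and 1348 CPM. Tumour MET-107 was lowest in both fractions and the groups overlapped. The means were 1092 ± 302 CPM in NP+ against 1218 ± 424 CPM in NP-. The fitted log2 fold change of NP+ over NP- was -0.16 (SE 0.31), with an adjusted p of 0.767 in edgeR's quasi-likelihood test.

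Fosb, which encodes an AP-1 subunit that can replace Fos in the dimer, stood at 113, 56.0 and 87.8 CPM in NP+ and at 106.05, 56.0 and 127 CPM in NP-, in the same tumour order. MET-107 was again the lowest tumour in both fractions, and the log2 fold change was -0.17 (SE 0.34, edgeR adjusted p 0.766). Relative to Fos in the same library, Fosb gave 7.01 to 8.82 counts per 100 counts of Fos in NP+ and 6.79 to 9.45 in NP-. Per length of transcript, Fos made up 94.6 to 96.5% of the summed level of the 3 Fos family genes in every library.

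Fosl2, which encodes the AP-1 subunit Fra-2, stood at 87.2, 88.5 and 86.1 CPM in NP+ and at 68.5, 66.3 and 86.0 CPM in NP-. It was the only one of the 10 genes whose CPM did not overlap between the fractions, with NP+ above, a pattern found in 13.3% of the genes tested. NP- lay above without overlap in 15.6%, and 28.9% of genes did not overlap in either direction. The gap between the lowest NP+ and the highest NP- library was small, since both fractions of tumour MET-108 were nearly equal. The log2 fold change was 0.25 (SE 0.18, edgeR adjusted p 0.399). It was -0.01 with upper-quartile scaling and -0.05 with total counts, so its direction depends on the scaling. Its means were 87.3 ± 1.22 CPM in the positive and 73.6 ± 10.8 CPM in the negative fraction, and only 1.33% of genes of at least 5 CPM had a smaller SD of log2 CPM among NP+ libraries.

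**Figure D1:**
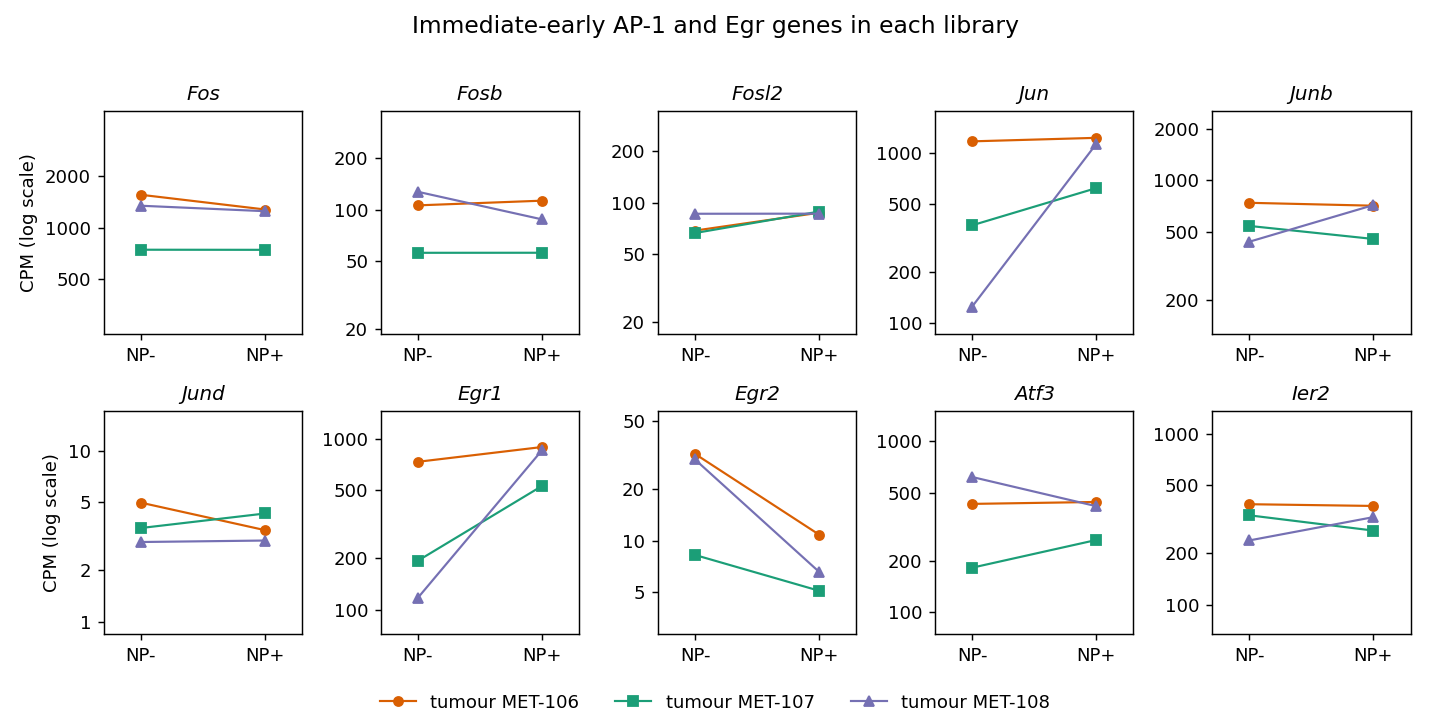
CPM of each of the 10 genes on a log axis, with NP- at the left and NP+ at the right of each panel and 1 line per tumour. Every panel spans the same number of log units. The lines are near level for Fos and slope downward to NP+ for Egr2. For Jun and Egr1 they slope upward with the TMM scaling shown, but in MET-106 not with total counts. The steepest lines of Jun, Egr1 and Egr2 are in tumour MET-108.

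In the Jun family, Jun was higher in the NP+ fraction of tumours MET-107 and MET-108 and near equal in MET-106. Jun encodes the founding Jun-family partner of Fos. It stood at 1220, 620 and 1123 CPM in NP+ and at 1164, 375 and 125 CPM in NP-. The NP+ libraries were within 1.97-fold of each other, while the NP- libraries ran over a 9.29-fold range from MET-106 at the top to MET-108 at the bottom. The NP- library of MET-106 lay within the NP+ range, so the groups overlapped. The within-tumour log2 ratios of NP+ over NP- were 0.07, 0.72 and 3.16. With total counts in place of TMM they were -0.23, 0.44 and 2.88, so the direction in MET-106 depends on the scaling. The means were 988 ± 322 against 555 ± 542 CPM, and the log2 fold change of 0.83 (SE 0.66) had an edgeR adjusted p of 0.443. A fit with the tumour as a block gave 1.26 (SE 0.56) with an adjusted p of 0.230.

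Junb, whose product is a weaker activator than that of Jun on many AP-1 sites, did not share this spread. It stood at 711, 454 and 716 CPM in NP+ and at 739, 542 and 437 CPM in NP-, with a log2 fold change of 0.13 (SE 0.26, edgeR adjusted p 0.763). Its sign turned to -0.11 with upper-quartile scaling and to -0.17 with total counts. The ratio of the genes within a library showed the contrast between them. Jun gave 172, 136 and 157 counts per 100 counts of Junb in NP+, and 157, 69.3 and 28.7 in NP-. The NP- library of MET-106 thus lay within the NP+ range, while those of MET-107 and MET-108 held fewer Jun than Junb counts. Per length, Jun made up 55.2, 49.3 and 52.9% of the Jun family level in NP+ and 52.9, 33.1 and 17.0% in NP-.

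Jund, which encodes the subunit usually present in resting cells, had the lowest level of the 10 genes. It stood at 3.43, 4.30 and 2.99 CPM in NP+ and at 4.97, 3.53 and 2.93 CPM in NP-, from 85 to 238 counts a library, and its log2 fold change was -0.09 (SE 0.47, edgeR adjusted p 0.911). These levels are uncertain, because the antisense gene Gm11175 shares 877 of the 1668 exon bases of Jund. All 431 genes that lie wholly inside exons of the opposite strand, Gm11175 among them, had no count in any library, against 9.46% of the 48884 other genes. On the 791 bases that are not shared, Jund stood at 3.77 to 5.43 CPM per kb in NP+ and 3.70 to 6.28 in NP-. Smaller overlaps touch Jun, with 232 bases shared with Junos, and Junb, with 173 bases shared with Prdx2.

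Egr1 followed the pattern of Jun, and Egr2 went the other way. Egr1 encodes a zinc-finger factor known to be induced in endothelium by injury and flow, and it stood at 894, 530 and 859 CPM in NP+ and at 733, 193 and 117 CPM in NP-. It was higher in NP+ in 3 of 3 tumours with TMM, with log2 ratios of 0.29, 1.45 and 2.87, but in 2 of 3 with total counts, where the ratios were -0.01, 1.17 and 2.58. The NP- library of MET-106 lay within the NP+ range. The means were 761 ± 200.9 and 348 ± 336 CPM. The log2 fold change of 1.13 (SE 0.59) had an unadjusted p of 0.0901 and an adjusted p of 0.275 in edgeR. With the tumour as a block it was 1.53 (SE 0.45), with an unadjusted p of 0.0102 and an adjusted p of 0.134.

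Egr2, a close relative of Egr1 best known from Schwann cells and lymphocytes, was at a far lower level and lay at 10.8, 5.08 and 6.55 CPM in NP+ and at 32.1, 8.23 and 29.8 CPM in NP-. These rest on 198 to 1538 counts a library. It was lower in NP+ in 3 of 3 tumours, with log2 ratios of -1.57, -0.70 and -2.19, and the groups overlapped only in that the NP+ library of MET-106 lay above the NP- library of MET-107. The means were 7.48 ± 2.98 and 23.4 ± 13.2 CPM, 3.13 times as high in NP-. The log2 fold change was -1.65 (SE 0.52) with an unadjusted p of 0.0118 and an adjusted p of 0.145 in edgeR. DESeq2 gave -1.61 with an adjusted p of 0.0221, in a fit that called 15.5% of genes. The authors' deposited table also places Egr2 under 0.05, with an adjusted p of 0.0269, where 13.2% of its genes are. Over all settings run here the adjusted p of Egr2 ran from 0.0221 to 0.443.

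The ratio of the Egr genes within a library needs no scaling. Egr2 gave 1.21, 0.959 and 0.762 counts per 100 counts of Egr1 in NP+ and 4.38, 4.26 and 25.4 in NP-. All 3 NP- libraries lay above all 3 NP+ libraries, MET-106 included, in a ratio chosen after the values were seen, and so did 20.5% of all genes tested when set against Egr1 (20.7% did not overlap in either direction). Per length, Egr2 made up 0.996 to 1.57% of the level of both Egr genes in NP+ and 5.32 to 25.1% in NP-.

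Atf3 and Ier2 differed little between the fractions on average. Atf3 encodes a stress-induced factor that can pair with Jun proteins, and it stood at 441, 264 and 416 CPM in NP+ and at 429, 182 and 617 CPM in NP-. The NP- libraries lay on both sides of the NP+ range, and the log2 fold change was -0.13 (SE 0.40, edgeR adjusted p 0.848). Ier2 stood at 379, 272 and 326 CPM in NP+ and at 388, 335 and 238 CPM in NP-, with a log2 fold change of 0.02 (SE 0.22, edgeR adjusted p 0.952). Its sign turned with the scaling, to -0.21 with upper-quartile scaling and -0.28 with total counts. For both genes the groups overlapped and the difference of the means was smaller than either group's SD.

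**Figure D2:**
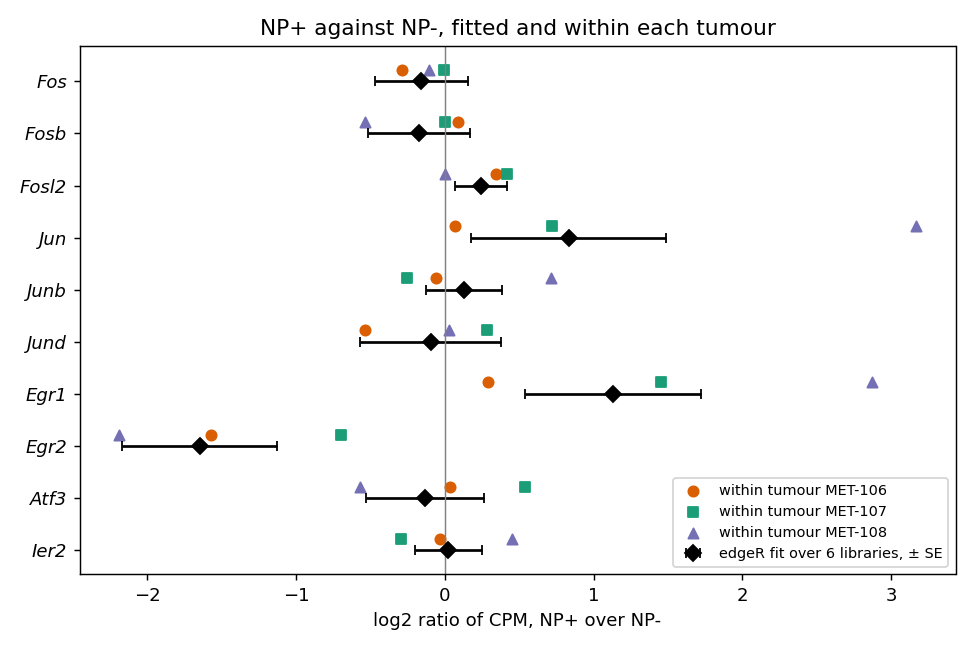
Log2 ratio of NP+ over NP- for each gene, with the edgeR fit over the 6 libraries as a black diamond ± SE and the ratio within each tumour as a coloured symbol. With TMM scaling Jun and Egr1 lie to the right of 0 in all 3 tumours, at 0.07 to 3.16 and 0.29 to 2.87 (with total counts both are left of 0 in MET-106), and Egr2 lies to the left, at -0.70 to -2.19.

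None of the 10 genes had an adjusted p under 0.05 in edgeR, where 0.0292% of the 23989 genes tested did, 3 of them higher in NP+ (0.0125%) and 4 lower (0.0167%). At an unadjusted p under 0.05 there was 1 of 10, Egr2, against 23.4% of all genes. With the tumour as a block 0.0625% of genes were called, the 10 genes were still not among them, and Egr1 and Egr2 had an unadjusted p under 0.05, where 22.4% of all genes did. With TMM scaling Fosl2, Jun and Egr1 were higher in NP+ in 3 of 3 tumours, where 20.0% of genes were, and Fos and Egr2 were lower in 3 of 3, where 30.2% were, although the ratios of Fos in MET-107 and of Fosl2 in MET-108 were near 0. With total counts Jun, Egr1 and Fosl2 were each higher in 2 of 3 tumours and none of the 10 was higher in 3 of 3, where 7.92% of genes were, while Fos, Fosb, Jund and Egr2 were lower in 3 of 3, where 39.2% were. With TMM, the 5 of 10 genes with 1 direction in all tumours compare with 50.2% of all genes. The median log2 fold change of the 10 was -0.03, against -0.29 for all genes tested and 0.24 for the 10825 genes of at least 5 CPM. The genes did not move as a block: 5 of the fitted values were above 0 and 5 below. The p values measure the spread between the libraries of 3 tumours.

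Scaling between libraries is avoided when each gene is set against Fos in its own library, a ratio chosen after the values were seen. Jun gave 95.2, 83.3 and 89.7 counts per 100 counts of Fos in NP+ and 74.5, 50.4 and 9.30 in NP-. Egr1 gave 69.8, 71.2 and 68.6 in NP+ and 46.9, 26.0 and 8.71 in NP-. On this measure the fractions of both genes no longer overlapped, with NP+ above, as for 7.1% of the genes tested. Egr2 gave 0.844, 0.683 and 0.523 counts per 100 counts of Fos in NP+ and 2.06, 1.10 and 2.21 in NP-, so NP- lay above, as for 7.0% of genes. The other 6 genes overlapped. Among all genes tested, 14.1% did not overlap in either direction. An exact two-sided permutation test of 3 against 3 libraries cannot fall below a p of 0.1, so these separations cannot pass 0.05 by themselves. That floor treats the libraries as unpaired, and pairing by tumour allows fewer arrangements.

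The ratios to Fos were also nearly constant among the NP+ libraries for Egr1, at 68.6 to 71.2, and for Atf3, at 33.2 to 35.5 counts per 100 counts of Fos. In NP- the same ratios ran from 8.71 to 46.9 for Egr1 and from 24.4 to 45.8 for Atf3. Junb and Jun also had narrow ranges in NP+, at 55.5 to 61.1 and 83.3 to 95.2 counts per 100 counts of Fos. These ranges were picked after the values were seen, and the share of all genes with ranges as narrow was not computed.

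**Figure D3:**
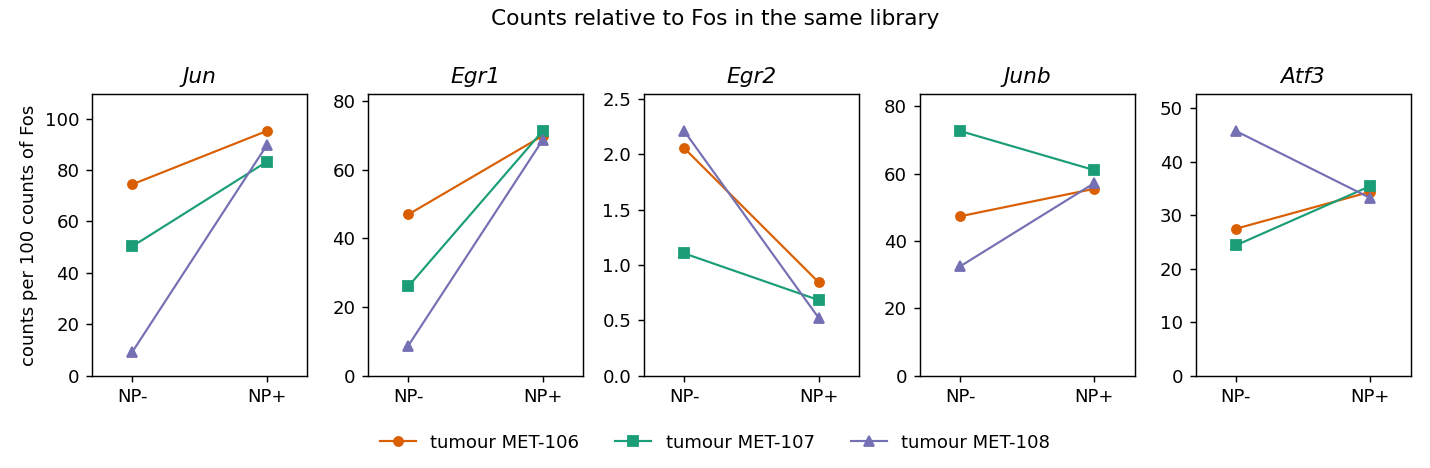
Counts of Jun, Egr1, Egr2, Junb and Atf3 per 100 counts of Fos in the same library, on linear axes from 0, with 1 line per tumour. The NP+ libraries of Egr1 lie at 68.6 to 71.2 and the NP- libraries at 8.71 to 46.9, whereas the fractions overlap for Junb and Atf3.

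The highest NP- library was at least 3-fold above the lowest for Jun (9.29-fold), Egr1 (6.24-fold), Egr2 (3.90-fold) and Atf3 (3.40-fold), which is 4 of the 9 genes with a mean of at least 5 CPM, against 15.0% of all such genes. In NP+ none of the 9 reached 3-fold, against 1.35% of all such genes. The SD of log2 CPM in NP- was larger for Jun than for 97.2% and for Egr1 than for 95.4% of genes of at least 5 CPM, and in NP+ than for 95.9% and 91.5%. The NP- values of both genes include MET-106, their highest NP- library. Without it the NP- libraries held 375.3 and 125.3 CPM of Jun and 193 and 117 CPM of Egr1, both under 3-fold. Egr2 (8.23 and 29.8 CPM) and Atf3 (182 and 617 CPM) stayed above 3-fold. The shares of all genes without MET-106 were not computed. Among other genes, Fos, Fosb and Junb ranked higher for spread in NP+, where their SD was larger than for 92.7, 95.4 and 88.6% of genes. In NP- it was larger than for 70.4, 75.2 and 49.6%. Their SDs themselves were not larger in NP+, at 0.443, 0.512 and 0.376 against 0.565, 0.622 and 0.381 in NP-. In NP+, MET-107 was the lowest library for 8 of the 10 genes, all but Fosl2 and Jund, and 51.1% of genes of at least 5 CPM were also lowest there. Summed over the 10 genes, the levels were 5141, 3038 and 4876 CPM in NP+ against 5227, 2506 and 3128 CPM in NP-, so tumour MET-107 was lowest in both fractions.

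Profiles over the 6 libraries followed the families only in part. The distance between genes, as the root mean square difference of centred log2 CPM, was 0.14 for Junb and Ier2, 0.17 for Fos and Fosb, 0.21 for Fosb and Atf3, and 0.28 for Jun and Egr1. Jun lay at 0.93 from Junb and at 1.17 from Fos, its AP-1 partners, and Egr2 lay at 1.74 from Egr1. These distances describe 6 libraries that share tumours. The order of NP- libraries that Jun and Egr1 share, falling from MET-106 to MET-107 to MET-108 with MET-107 under every NP+ library, was also found in 17.3% of genes of at least 5 CPM.

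Outside all lists of genes used here, the profiles nearest to the mean of the 10 genes were those of Ints6 (distance 0.08), Slbp (0.12), Gas5 (0.13), Zfp131 (0.13) and Zfp367 (0.13), among 10674 genes of at least 5 CPM. When the genes were taken 1 at a time, a step added after the values were seen, Ier3, another immediate-early gene, was nearest to Fos at 0.10 and Slc7a5, an amino acid transporter gene, was nearest to Egr1 at 0.15. Errfi1, which encodes a feedback inhibitor of the EGF receptor, was among the 5 nearest to both Jun and Egr1, at 0.28 and 0.21. It stood at 196, 131 and 200.9 CPM in NP+ against 193, 64.0 and 35.2 CPM in NP-. No gene lay as close to Egr2, whose nearest was Nkd2 at 0.41.

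Per length of transcript, the levels of the 10 genes spanned 2 groups. Fos was the highest, at a mean of 491 CPM per kb over the 6 libraries and rank 72 of the genes tested, and it was above the next gene in 6 of 6 libraries. Junb (261), Jun (242), Ier2 (212) and Atf3 (182 CPM per kb) followed without a fixed order, since Junb was above Jun in 3 of 6, Jun above Ier2 in 4 of 6 and Ier2 above Atf3 in 5 of 6 libraries. Egr1, at 124 CPM per kb, was below Atf3 in 6 of 6. Fosb (14.6), Fosl2 (8.31), Egr2 (4.54) and Jund (2.21 CPM per kb) formed the lower group, each above the next in 5 of 6 libraries. The order differed in the NP- library of MET-108, where Jun stood at 39.3 CPM per kb, under Junb, Ier2 and Atf3.

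The results for Jun and Egr1 depended on which NP- libraries were kept. Without the NP- library of MET-106, the log2 fold change was 2.04 (SE 0.49, edgeR adjusted p 0.0488) for Jun and 2.35 (SE 0.32, edgeR adjusted p 0.0183) for Egr1, both past the threshold, in a fit that called 8.35% of genes. Without both libraries of MET-106 the values were 2.00 and 2.36, with adjusted p of 0.127 and 0.101. Without the NP- library of MET-108 they were 0.38 and 0.73, and without the NP- library of MET-107 they were 0.62 and 0.85. Over all settings run, the adjusted p ran from 0.0488 to 0.844 for Jun and from 0.0183 to 0.647 for Egr1. Egr2 ran from -1.30 without the NP- library of MET-106 to -2.04 without that of MET-107, and was lower in NP+ in every such fit. Its adjusted p stayed above 0.05 in each of these edgeR fits.

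**Figure D4:**
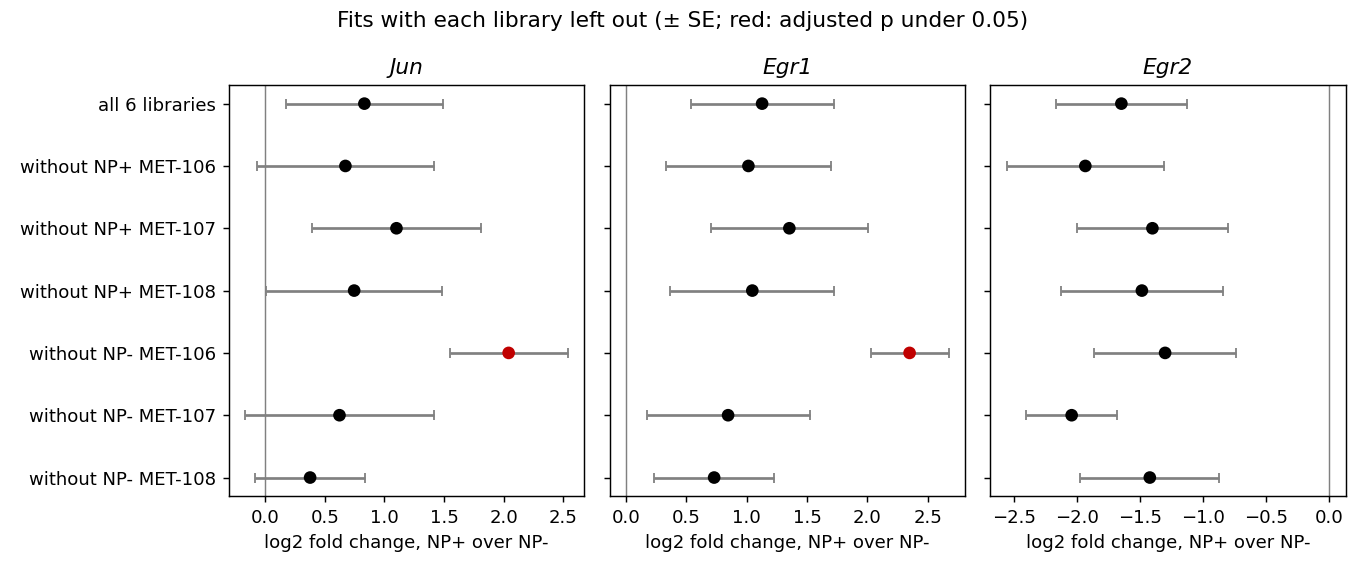
Log2 fold change of NP+ over NP- (± SE) for Jun, Egr1 and Egr2 in the edgeR fit over 6 libraries and in fits with each library left out, with red points for an adjusted p under 0.05. Jun and Egr1 pass only without the NP- library of MET-106, at 2.04 and 2.35, and Egr2 lies between -1.30 and -2.04.

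Markers of other cell types also differed between these libraries. Within NP-, fibroblast, epithelial, pericyte, lymphocyte and macrophage sums fell from MET-106 to MET-107 to MET-108, the order of Jun and Egr1. Neutrophil sums and erythroid and platelet sums did not have this order, and pan-endothelial sums rose along it. Apart from macrophage markers, the sums that fell in this order were lower in every NP+ library than in any NP- library. In MET-106 the NP- library, where Jun and Egr1 were closest to NP+ and Egr2 was highest, had the most fibroblast markers (3820 CPM), epithelial markers (576 CPM) and pericyte markers (790 CPM, against 143 to 235 in the other NP- libraries and 92.2 to 114 in NP+). The NP- library of MET-108, where Jun and Egr1 were lowest and Egr2 was nearly as high as in MET-106, had 66.9, 20.9 and 143 CPM of these 3 lists. The NP- library of MET-107, where Egr2 was lowest among NP-, had the most neutrophil markers, at 127 CPM against 23.1 and 12.0 CPM in the other NP- libraries and 4.34 to 6.75 CPM in NP+. Lymphocyte markers summed to 14.4 to 36.4 CPM in NP- and 5.06 to 5.44 CPM in NP+. The 10 macrophage markers summed to 87.2 to 248 CPM in NP- and 144 to 283 CPM in NP+, of which Cd14 was at 252, 179 and 123 CPM in NP+ and at 117, 41.9 and 40.2 CPM in NP-. The other 9 summed to 47.0 to 131 CPM in NP- and 21.0 to 30.6 CPM in NP+, without overlap. The erythroid and platelet markers summed to 12.3 to 73.6 CPM and 18.5 to 25.1 CPM. No marker was at 0 in every library, but Krt19 and Krt5 (epithelial), Ly6g and Mmp8 (neutrophil), Ms4a1 (lymphocyte) and Ppbp and Gp9 (platelet) were at 0 in at least 1. Their part in the levels of the 10 genes was not tested. In these bulk libraries, fewer cells of a type and less RNA per cell cannot be told apart.

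**Figure D5:**
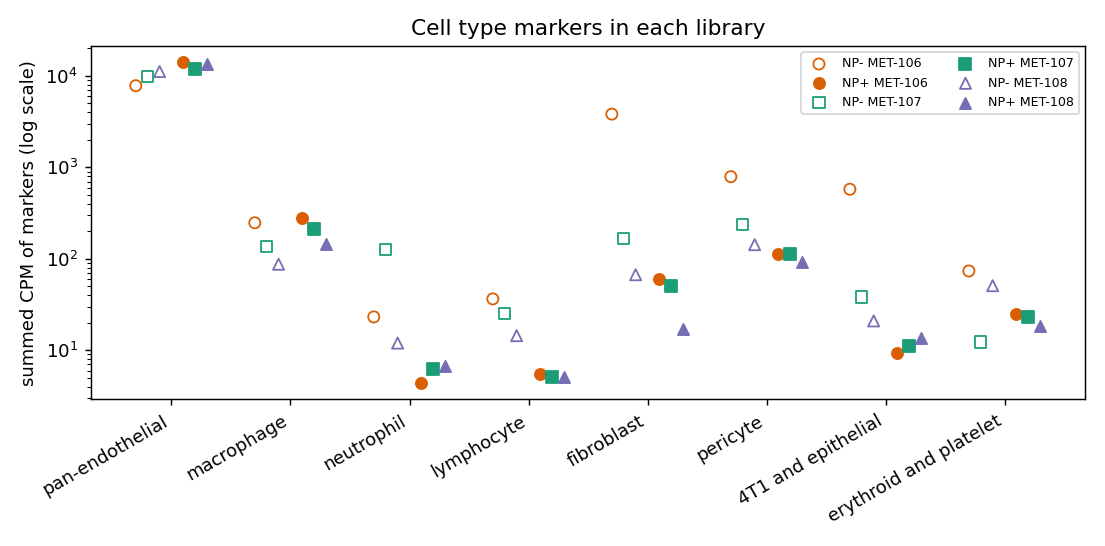
Summed CPM of the markers of 8 cell types on a log axis, with open symbols for NP- and filled symbols for NP+ libraries and 1 colour and shape per tumour. The NP- library of MET-106 is highest for fibroblast (3820), pericyte (790) and epithelial (576) markers, and lowest for pan-endothelial markers (7809).

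Other genes of the same pathway were read from lists made with earlier results of these data known, and none of them had an adjusted p under 0.05 in edgeR. Among 17 tested of 18 other AP-1 and Egr family genes, 0 were higher and 1 was lower at an unadjusted p under 0.05, where 8.01% of all genes were higher and 15.4% lower, with a median log2 fold change of 0.11. The lower one was Maf, which encodes a large Maf factor, at 2.95 ± 1.28 CPM in NP+ against 8.91 ± 5.21 CPM in NP- (log2 fold change -1.59, edgeR adjusted p 0.154). Maff, a small Maf gene without an activation domain, stood at 5.31 ± 1.00 and 2.66 ± 0.21 CPM, with an edgeR adjusted p of 0.217. Batf3, Atf4 and Mafk had log2 fold changes of 0.61, 0.34 and 0.43.

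Among 39 tested of 40 other immediate-early genes, 3 were higher and 6 lower at an unadjusted p under 0.05, and the median was 0.02. At that p, 8.01% of all genes were higher and 15.4% lower, against 17.5% and 5.48% of genes of at least 5 CPM. Ctgf, a secreted matrix protein gene and a known target of YAP, stood at 1065, 845 and 1458 CPM in NP+ against 355, 306 and 159 CPM in NP- (log2 fold change 2.04, SE 0.33, edgeR adjusted p 0.0786), and the groups did not overlap. Rhob and Cebpd were also higher in NP+, at 65.3 ± 8.04 against 29.2 ± 8.35 CPM and 32.1 ± 5.49 against 12.6 ± 5.69 CPM, with edgeR adjusted p of 0.101 and 0.126. Klf4, a flow-responsive endothelial factor, was lower in NP+, at 28.9 ± 2.12 against 56.2 ± 6.03 CPM (edgeR adjusted p 0.0928). Arc was lower too, at 11.7 ± 4.88 against 29.3 ± 5.20 CPM (edgeR adjusted p 0.121). None of these 5 passed the threshold.

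Among 25 kinases and factors upstream of the 10 genes, 8 were higher and 1 lower at an unadjusted p under 0.05, with a median log2 fold change of 0.41. Of all genes of at least 5 CPM, 17.5% were higher and 5.48% lower at that p, with a median of 0.24. Over all genes tested, 8.01% were higher and 15.4% lower, with a median of -0.29. Map2k2, which encodes a MAP kinase kinase, stood at 70.0, 91.7 and 80.7 CPM in NP+ against 38.9, 15.1 and 6.26 CPM in NP- (log2 fold change 2.00, edgeR adjusted p 0.127). Its NP- libraries had the same order as those of Jun and Egr1. Map2k4 and Mapk9 of the JNK branch had log2 fold changes of 1.10 and 1.00, and the ribosomal S6 kinase gene Rps6ka3 0.45, with edgeR adjusted p of 0.128 to 0.170.

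The 15 feedback genes of this pathway encode phosphatases and Sprouty and Spred inhibitors. Of them, 1 was higher and 0 were lower at an unadjusted p under 0.05, with a median of 0.13. At that p, 8.01% of all genes were higher and 15.4% lower, against 17.5% and 5.48% of genes of at least 5 CPM. The higher feedback gene was Spry4, at 103 ± 24.8 against 62.7 ± 22.1 CPM (log2 fold change 0.72, edgeR adjusted p 0.2). Dusp1, a phosphatase gene that is itself immediate-early, stood at 1026, 783 and 1103 CPM in NP+ against 871, 152 and 82.9 CPM in NP- (log2 fold change 1.40, SE 0.73, edgeR adjusted p 0.274). Its NP- libraries fell in the same order as those of Jun and Egr1, with MET-106 inside the NP+ range. Spred1, Spred3 and Spred2 had log2 fold changes of 0.53, 0.60 and 0.72.

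Among 13 heat shock genes known to rise when tissue is dissociated, 2 were higher and 3 lower at an unadjusted p under 0.05. Their median was 0.24. At that p, 8.01% of all genes were higher and 15.4% lower, against 17.5% and 5.48% of genes of at least 5 CPM. Hspa1a, an inducible Hsp70 gene, stood at 47.5, 72.8 and 141 CPM in NP+ against 386, 119 and 247 CPM in NP- (log2 fold change -1.52, edgeR adjusted p 0.145). MET-106 and MET-108 were the highest NP- libraries and MET-107 was the lowest, as for Egr2, Fos, Fosb, Fosl2 and Atf3, though for Fosl2 only by 68.5 against 66.3 CPM. The share of all genes with MET-107 lowest in NP- was not computed. In NP+ Hspa1a was lowest in MET-106, where none of these members was lowest. Its near-identical copy Hspa1b was at 141 ± 74.4 and 319 ± 171 CPM, and reads of this pair may be divided between them. Dnajb4 had a log2 fold change of -0.79, and Hspa5 and Hsph1, which were higher in NP+, of 0.54 and 0.67. An effect of digestion and sorting on the 10 genes was not tested.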

How the data were processed

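The 6 samples were grouped by sort fraction and paired by tumour from their labels. Raw counts per gene were deposited for each library. The tools named in the submitters' processing notes are DESeq2, featureCounts (Subread 1.5.2), STAR 2.5.2b and Trimmomatic 0.036, with build GRCm38 (mm10). Which annotation was counted, with which strand and multi-mapping settings, is not given in the sources used here. Per the labels' protocols, libraries were made with SMART-Seq v4, which marks neither strand nor molecule, and read as pairs of 150 bp. Intervals and SEs therefore treat amplified reads as counted. The authors' deposited table gives, per library, a signal (the count divided by a size factor), log2 fold changes of NP- over NP+, which were turned here, and p-values. Of its 156426 signal values, 100.0% gave whole reads within 0.01 reads, and an edgeR test on these reads called 7 genes. Transcript lengths are those deposited with the counts.

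edgeR 4.0.16 in R 4.3.3 was used (quasi-likelihood test, TMM, filterByExpr with a minimum count of 10 by group, 23989 genes, Benjamini-Hochberg adjustment over all, threshold 0.05). The tumour as a block, DESeq2 1.42.0, limma 3.58.1 (voom), other scalings and filters, and left-out libraries were alternatives. The block rests on the labels, which put both fractions of a tumour under 1 name. Same-tumour deviations from the group means correlated at 0.28, 0.21 and 0.02. The fit code was required to recover known changes in simulated counts with low dispersion and no tumour effect. Counts were also simulated with the dispersion of these libraries, but nothing was required of that run and its outcome is not given here. The check passed at low dispersion does not show how the fits perform at the spread of these libraries. The members and lists were chosen with earlier results of these data known. All 10 genes are named, with up to 5 genes of smallest p per list, Pecam1 and Ptprc as sorting markers and the 5 nearest profiles. A gene picked by this rule is not reported here. Pecam1, which encodes CD31, stood at 3291 ± 500 CPM in the positive and 2353 ± 449 CPM in the negative fraction (edgeR adjusted p 0.211). Ptprc, which encodes CD45, was at 4.48 ± 1.00 and 13.9 ± 10.4 CPM (edgeR adjusted p 0.150). Profiles are log2 CPM with 0.1 added, centred on each gene's mean. Promoter sequences are from a RefSeq table that was matched for 8 of the 10 genes, and the 3 windows used end just before the start of a GENCODE transcript.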

Additional observations from a re-analysis of the deposited data

How the results depend on the processing

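The fitted log2 fold changes of Egr1 and Jun were above 0 and that of Egr2 below 0 under every setting run, and with all 6 libraries only DESeq2 called a member (1, Egr2). The replicate block changed no other call among the 10 genes. It moved the count over all genes from 7 to 15 and turned Atf3 to 0.00299 on the log2 scale. Other settings called 245 genes (adjusted p under 0.1), 3331 (DESeq2), 18 (limma-voom), 21 (upper quartile, 3 higher and 18 lower against 3 and 4), 11 (total counts, 2 higher and 9 lower), 1211 (no filter), 105 (at least 5 CPM in 3 libraries) and 227 (that filter with the block, added after seeing the data). Leaving out libraries or tumours gave 0 to 2320 genes and 0 to 2 members.

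The median of the members moved to -0.27 with upper-quartile scaling, -0.33 with total counts, 0.13 without a filter, -0.25 with the 5 CPM filter and -0.23 with that filter and the block, and ran from -0.0356 to 0.31 with libraries left out. The scaling shifted the median of all genes, which was -0.29 (TMM), -0.53 (upper quartile) or -0.59 (total counts), so directions near 0 follow the scaling. Fosl2, Junb and Ier2 turned to -0.00625, -0.11 and -0.21 with upper-quartile scaling, to -0.0497, -0.17 and -0.28 with total counts, to -0.0220, -0.14 and -0.25 with the 5 CPM filter, and to -0.0141, -0.14 and -0.23 with that filter and the block. Without a filter, Fos, Fosb, Jund and Atf3 turned to 0.000369, 0.00372, 0.0545 and 0.0456. With libraries left out, Fos ran from -0.40 to 0.13, Fosb from -0.44 to 0.12, Junb from -0.0644 to 0.46, Jund from -0.31 to 0.37, Atf3 from -0.47 to 0.31 and Ier2 from -0.13 to 0.26. The cause of these changes was not tested. Jund could not be tested under the 5 CPM filter. The fits with libraries left out carry no block and pool the spread over both fractions. The 3 tumours limit the precision, and Egr2 and Jund also rest on few counts. The GC content of the 10 genes, from 51.4% in Egr2 to 67.1% in Jund, was set beside the median log2 fold change of genes in bins of GC, which ran from 0.17 to 0.33.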
